A study of Rattus norvegicus with 30 samples.

Results

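Kainate excites neurons through glutamate receptors and provokes seizures in rodents. How its effect on gene expression in rat hippocampus changed between 24 and 72 h is described here. For every probe set, the difference between kainate and control arrays at 24 h was subtracted from the same difference at 72 h, on the log2 scale. A value below 0 therefore means that the effect at 72 h was lower than at 24 h. The comparison used 12 of the 30 Affymetrix arrays of the study, chosen by their titles: 3 arrays each of rats given kainate or phosphate-buffered saline (PBS) and killed 24 h later, and 3 of each killed 72 h later. The other arrays are of 1, 6 and 240 h. The labels give no strain, sex, age, dose or record of the seizures, and they do not say whether an array holds the RNA of 1 animal or of several. P-values therefore measure the spread between arrays, which the fit pooled over all 30. A probe set was tested when its signal was above 35 on at least 3 of the 12 arrays, which left 5841 of 8740 probe sets and 3474 named genes.

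Kainate seizures excite and can kill hippocampal neurons, above all the pyramidal cells. Active neurons first switch on immediate early genes and secreted signalling peptides. Astrocytes then become reactive: they raise intermediate filament proteins such as vimentin, lipid-binding proteins and matrix regulators, while microglia become phagocytic and show galectin, complement and lysosomal genes. Some of these responses are brief, while glial scarring and the loss of cells can last. In whole tissue RNA, fewer cells of a type and less RNA per cell cannot be told apart.

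The labelled tissue was checked by its markers. The summed signal of 24 neuron markers lay between 27000 and 28363 on the PBS arrays of 24 h, between 22737 and 23003 on the kainate arrays of 24 h, between 29177 and 29979 on the PBS arrays of 72 h, and between 26923 and 29583 on the kainate arrays of 72 h. The neuron markers were thus abundant in every group. Markers of the choroid plexus, a neighbouring tissue, varied within groups, and the sum of 4 of them ranged from 328 to 2115 on the PBS arrays of 72 h alone.

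Arrays of 6 and 72 h correlated with each other at a median r of 0.954 and arrays of 1, 24 and 240 h at 0.926, against 0.924 between these sets. Only the arrays of 6 and 72 h thus stood out as more alike, and no label names a batch. In both treatments the 72 h arrays lie within that set and the 24 h arrays outside it. As a sign of RNA quality, the beta-actin log2 ratio of the 3 prime over the 5 prime probe set was 0.69 ± 0.08 (SD, n = 3) for PBS and 0.79 ± 0.14 for kainate at 24 h. At 72 h it was 0.38 ± 0.13 for PBS and 0.45 ± 0.12 for kainate. The ratio of Gapdh was −0.09 (PBS) and 0.05 (kainate) at 24 h, and −0.01 and −0.13 at 72 h. At 72 h the Gapdh ratios of kainate arrays all lay below those of PBS arrays. The ratio of hexokinase was 1.53 (PBS) and 1.27 (kainate) at 24 h, and 1.05 and 1.00 at 72 h. Each kainate group is set against PBS arrays of its own time. Within the change from 24 to 72 h, however, time and set of arrays cannot be told apart. The median standard deviation within a group was 0.23 (PBS) and 0.27 (kainate) at 24 h and 0.16 and 0.18 at 72 h, on the log2 scale. The 240 h arrays, like those of 24 h, lie outside the set of 6 and 72 h, and their values are given beside the main ones.

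Most of the effect of kainate seen at 24 h was smaller at 72 h, but few single probe sets passed the test of that change. At 24 h 729 probe sets passed (12.5% of those tested, limma, adjusted p under 0.05), 317 higher after kainate (5.43%) and 412 lower (7.05%). At 72 h 3 passed (0.0514%), all 3 higher, with 390 at an unadjusted p under 0.05 (6.68%). The change itself passed at 47 probe sets (0.805%), 40 with a lower effect at 72 h (0.685%) and 7 with a higher effect (0.12%). At an unadjusted p under 0.05 the change held 515 (8.82%). The median change over all tested probe sets was 0.03, a value that the scaling of the arrays to a common level holds near 0. The counts depend on single arrays and on the fit. The change passed at 29 probe sets without kainate replicate 2 and at 30 without kainate replicate 3 of 72 h. The 24 h count was 343 without kainate replicate 3 and 447 without PBS replicate 3 of 24 h. With the spread estimated at each time apart, 300 probe sets passed at 24 h and 59 in the change. With the replicate number as a block within each time, 716 and 25 passed.

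A probe set is called resolved here when it passed at 24 h, did not pass at 72 h, and its change back towards 0 passed. The word does not mean that the 72 h level equals that of the controls. Resolved were 46 probe sets, of which 40 had risen at 24 h and 6 had fallen. The median of the 40 rises was 1.86 at 24 h and 0.18 at 72 h, and that of the 6 falls was −0.86 and −0.02. One probe set passed at both times. For the other 682 that passed at 24 h, 276 rises and 406 falls, the arrays do not decide: the difference at 72 h did not pass, nor did the change. The smallest change that passed was 0.69, and the median standard error of a change was 0.34.

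**Figure D1:**
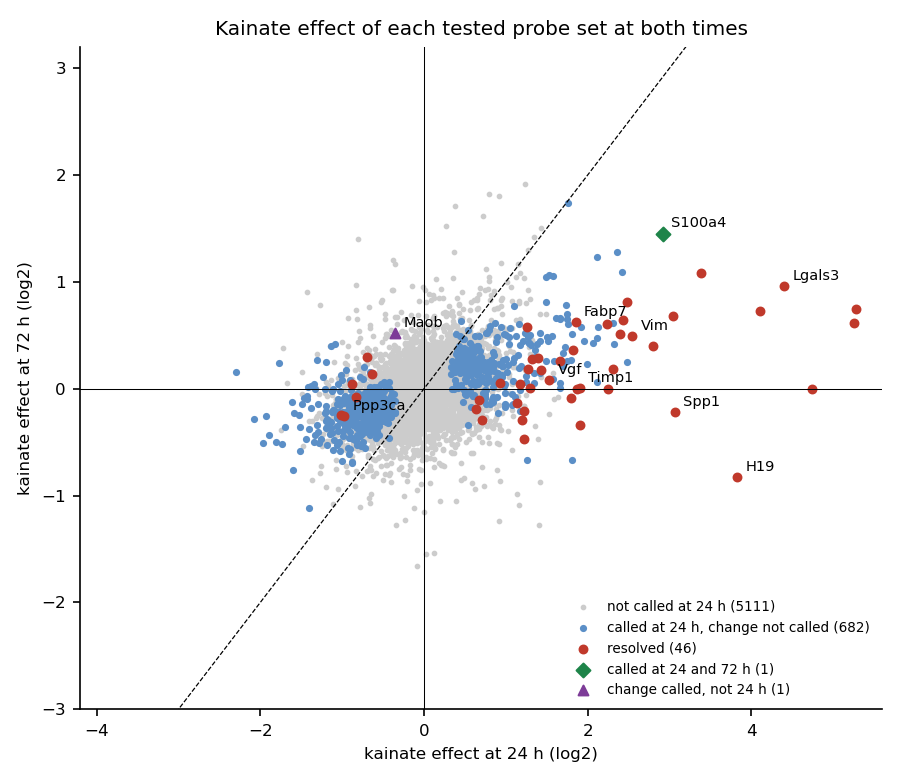
Kainate effect (kainate minus PBS, log2 signal) at 24 h on the horizontal axis and at 72 h on the vertical axis, with 1 point for each of 5841 tested probe sets and the dashed line marking equal effects. The 46 resolved probe sets (red) lie closer to 0 at 72 h than at 24 h, from H19 at −0.83 to Trh at 1.08, and most of the 682 others that passed at 24 h (blue) lie between 0 and the dashed line; S100a4 (green) passed at both times.

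By genes, with the probe set of the highest mean signal standing for each, 458 genes passed at 24 h (13.2%; 185 higher, 5.33%, and 273 lower, 7.86%), 2 at 72 h (0.0576%, both higher) and 30 in the change (0.864%), 24 with a lower effect at 72 h (0.691%) and 6 with a higher one (0.173%). Resolved were 24 rises and 5 falls. For 21 of the 24 rises the level on kainate arrays itself passed as lower at 72 h than at 24 h, beside 6.28% of all genes. In 14 of the 24 the 72 h difference lay above 0, beside 43.5% of all genes. In all 5 falls the level on kainate arrays passed as higher at 72 h, beside 9.87%. These genes were chosen by a passing change, which is computed from these same levels and 72 h differences. The choice thus favours such counts, and the shares of all genes beside them are no test. None of the 29 genes passed at 240 h by limma, where 2 of all genes did (0.0576%; 2 probe sets, 0.0342%) and 435 were at an unadjusted p under 0.05 (12.5%).

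Of the 24 resolved rises 5 are on the list of reactive astrocyte genes. Vim, the intermediate filament protein vimentin, had signals of 186, 206 and 200 (PBS) and 1006, 1253 and 1216 (kainate) at 24 h, and of 131, 151 and 146 (PBS) and 234, 175 and 198 (kainate) at 72 h. Kainate arrays lay above PBS arrays at both times without overlap, but by far less at 72 h. It was 5.85-fold higher at 24 h and 1.41-fold higher at 72 h, where it did not pass (log2 0.50 ± 0.21 SE, limma adjusted p = 0.708), and the change was −2.05 ± 0.30 (limma adjusted p = 0.000187).

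Timp1, a secreted inhibitor of matrix metalloproteinases, was at 149, 155 and 185 on PBS arrays and 576, 704 and 550 on kainate arrays of 24 h, and at 168, 171 and 154 on PBS and 162, 176 and 158 on kainate arrays of 72 h. The groups were far apart at 24 h and overlapped fully at 72 h. The effect was 3.74-fold at 24 h and 0.01 (log2) at 72 h, and the change was −1.90 ± 0.30 (limma adjusted p = 0.000456). Both tested probe sets of Timp1 passed in the change. The probe set not shown above met the signal filter only through the kainate arrays of 24 h. It thus had to differ at 24 h to be tested. At 72 h its signals were 3.41, 4.55 and 6.45 (PBS) against 21.6, 7.37 and 19.6 (kainate), and its effect of 0.61 did not pass.

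Fabp7, the brain fatty acid-binding protein of astrocytes and their precursors, changed by −1.23 ± 0.22 (limma adjusted p = 0.00167). Its signals were 258, 314 and 256 (PBS) against 945, 1075 and 963 (kainate) at 24 h, and 283, 252 and 272 against 460, 354 and 435 at 72 h. Kainate arrays stayed above all PBS arrays. The 72 h effect of 1.54-fold did not pass (log2 0.62 ± 0.15 SE, limma adjusted p = 0.125), and with arrays weighted by their quality it was 0.64 with an adjusted p of 0.00158, so the weighting changed the call and hardly the size.

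S100a10, a binding partner of annexin A2, rose 5.41-fold at 24 h and changed by −1.79 ± 0.41 (limma adjusted p = 0.0242). At 72 h it was at 76.6, 68.1 and 81.1 on PBS arrays and 139, 118 and 98.5 on kainate arrays, without overlap and without passing; its change was lost in 11 of 24 other settings. Serpina3n, a secreted serine protease inhibitor typical of reactive astrocytes, changed by −1.43, and Pdpn, the membrane glycoprotein podoplanin, by −1.27. Both passed, and with Ifitm3 and others below they are named because they passed and not by the rule for named genes. Spp1, osteopontin, a secreted phosphoprotein of matrix and phagocytes, had signals of 5.88, 21.8 and 15.8 on PBS and 123, 181 and 99.1 on kainate arrays of 24 h, and of 14, 12.7 and 18.4 on PBS and 12.3, 14.6 and 11.6 on kainate arrays of 72 h. The rise of 8.37-fold at 24 h was followed by overlapping groups at 72 h, and the change was −3.29 ± 0.57 (limma adjusted p = 0.00164).

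Of 17 tested reactive astrocyte genes, 10 rose at 24 h (5.33% of all genes) and 0 fell (7.86%). At 72 h 0 passed in either direction. In the change 5 passed (0.864% of all genes), all with a lower effect at 72 h. These 5 were Spp1, which met the signal filter only through the kainate arrays of 24 h, Vim, Timp1, S100a10 and Serpina3n. The median effect was 1.22 at 24 h and 0.19 at 72 h, against −0.06 and −0.04 over all tested genes. The summed signal of the list was 1666 to 1821 (PBS) and 4798 to 4823 (kainate) at 24 h, and 1826 to 1961 and 1995 to 2324 at 72 h. Kainate arrays were above PBS arrays at both times. Cd44, the hyaluronan receptor, rose at 24 h by log2 1.81 and stood at 0.51 at 72 h, and the tetraspanin Cd9 rose by 1.57 and stood at 0.50; their changes did not pass.

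Lgals3 and Cyba, on the list of microglia and macrophage markers, and Cd63, on the list of lysosome genes, were resolved rises too. Lgals3, Cyba and Spp1 met the signal filter only through the 3 kainate arrays of 24 h. So did a probe set each of Ccl2, Flnc, H19 and Timp1, which makes 7 of the 40 resolved probe sets that rose. Such probe sets had to differ at 24 h to be tested. They were 14 of the 317 rises of 24 h and 19 of the 5841 tested probe sets. Lgals3, galectin-3, a lectin of activated phagocytes, had signals of 4.97, 4.28 and 16.1 on the PBS arrays of 24 h, with 2 of these at the floor of 10.85 that was set for low values. On the kainate arrays of 24 h they were 247, 271 and 270. At 72 h they were 11.5, 12.9 and 12.7 on PBS arrays and 27.1, 22 and 23.4 on kainate arrays. Kainate arrays were above PBS arrays at both times, and nearly all of the rise was gone at 72 h. The effect was 21.2-fold at 24 h, a value that depends on the floor, and 1.95-fold at 72 h (log2 0.96 ± 0.38 SE, limma adjusted p = 0.589), and the change was −3.44 ± 0.53 (limma adjusted p = 0.000355). At 240 h the effect was 0.97, which did not pass either.

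Cyba, the p22 subunit of the NADPH oxidase of phagocytes, rose 5.27-fold at 24 h. Its signals were 18, 22 and 23.1 (PBS) against 80.9, 149 and 111 (kainate) at 24 h and 19.6, 22.2 and 20.8 against 34.5, 25 and 30.5 at 72 h, without overlap at either time. The change was −1.89 ± 0.46 (limma adjusted p = 0.0404), and this call was lost in 12 of 23 other settings. Cd63, a tetraspanin of lysosomes and late endosomes, had 364, 309 and 287 against 1078, 899 and 1052 at 24 h and 418, 404 and 316 against 435, 405 and 524 at 72 h. It rose 3.16-fold at 24 h, the groups overlapped at 72 h, and the change was −1.40 ± 0.21 (limma adjusted p = 0.00035).

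Of 12 tested microglia and macrophage markers 4 rose at 24 h (Lgals3, Cyba, Cd53 and Ctss), beside 5.33% of all genes. Of these 2, Lgals3 and Cyba, passed in the change, beside 0.864% of all genes. Both met the signal filter only through the kainate arrays of 24 h. The median effect of the 12 markers was 0.60 at 24 h and 0.18 at 72 h. The summed signal was 1417 to 1606 (PBS) and 2185 to 2712 (kainate) at 24 h, and 1598 to 1748 and 1765 to 1980 at 72 h. Cx3cr1 and Ptprc, a chemokine receptor and a phosphatase marking microglia and leukocytes, did not pass at 24 h (−0.07 and −0.37). What the markers contribute to the other results was not tested. Of 20 lysosome genes 7 rose, 1 fell (7.86% of all genes) and 1, Cd63, passed in the change.

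Of 19 tested genes of complement and antigen presentation 8 rose at 24 h, among them C1qb, a subunit of the first complement component (1.75), Psmb8, an immunoproteasome subunit (2.11), Cd74, the invariant chain of class II molecules (1.58), and RT1-Da, a class II chain (2.13). No member passed in the change. Over all genes 5.33% rose at 24 h and 0.864% passed in the change. At 72 h these 4 stood at 0.70, 1.23, 1.05 and 0.57, and 5 of the 19 were higher at an unadjusted p under 0.05 (4.09% of all genes, and 2.59% lower). The median was 0.54 at 24 h and 0.17 at 72 h. Of 16 cytokines, chemokines and their signalling partners 3 rose at 24 h, Ccl2, the transcription factor Stat3 and Nfkbia, an inhibitor of NF-kappa-B, and none passed in the change. Their median was 0.43 at 24 h and 0.25 at 72 h.

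Among neuropeptide and activity-regulated genes, Vgf and Nptx2 were resolved. Vgf, the precursor of secreted neuronal peptides, had 455, 467 and 418 (PBS) against 1378, 1207 and 1286 (kainate) at 24 h and 456, 484 and 364 against 432, 475 and 466 at 72 h. Kainate arrays were far above PBS arrays at 24 h and within their range at 72 h. It was 2.89-fold higher at 24 h (log2 1.53 ± 0.14 SE, limma adjusted p = 9.21e-09) and 0.08 at 72 h, and the change was −1.45 ± 0.20 (limma adjusted p = 0.000102). At 6 h the effect was 1.18, so the rise had been present before 24 h.

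Nptx2, a secreted pentraxin that clusters glutamate receptors at synapses, had 236, 253 and 191 against 519, 641 and 528 at 24 h and 312, 231 and 260 against 318, 342 and 308 at 72 h. Its effect was highest at 6 h (2.77) among the 5 times, 1.32 at 24 h and 0.28 at 72 h, and the change was −1.04 ± 0.21 (limma adjusted p = 0.00912). Only 1 of its 2 tested probe sets passed. Of 26 tested neuropeptides and growth factors 7 rose (5.33% of all genes) and 2 fell (7.86%) at 24 h. In the change 1, Vgf, passed (0.864% of all genes). Bdnf, a neurotrophin, rose by 0.86 at 24 h and stood at 0.32 at 72 h. Npy, neuropeptide Y, rose by 0.77 and stood at 0.52, and Tac1, the precursor of substance P, rose by 1.07 and stood at −0.15.

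Outside the cell type lists, H19 had the largest change among genes. H19 is an imprinted gene whose long RNA codes for no protein. Its signals were 43.3, 73.7 and 9.17 on PBS and 453, 502 and 439 on kainate arrays of 24 h, and 59.5, 68.5 and 79.1 on PBS and 62.9, 18.9 and 48.7 on kainate arrays of 72 h. The kainate arrays of 24 h were all above every other array of the comparison. The effect was 14.2-fold at 24 h and −0.83 at 72 h, and the change was −4.66 ± 0.88 (limma adjusted p = 0.00416). At 6 h the effect was 2.26. The other tested probe set of H19 also passed in the change (−4.75, limma adjusted p = 3.67e-07), but its effect at 6 h was 0. That probe set met the signal filter only through the kainate arrays of 24 h. It was at the floor on the other arrays of the comparison and thus had to differ at 24 h to be tested.

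Plin2, a coat protein of lipid droplets, had 63.2, 23 and 29.6 against 130, 143 and 121 at 24 h and 32.1, 22.7 and 24.7 against 17.7, 22.2 and 22.5 at 72 h. It rose 3.75-fold at 24 h and changed by −2.25 ± 0.46 (limma adjusted p = 0.00865). At 72 h the kainate arrays all lay just under the PBS arrays, without passing. Gpx1, a glutathione peroxidase, rose by 1.27 at 24 h and changed by −1.09 ± 0.26, and 1 of its 2 tested probe sets passed in the change. Rpl18, a protein of the large ribosomal subunit, rose by 0.93 and changed by −0.88 ± 0.21. It is the only 1 of 43 tested cytosolic ribosomal proteins that passed in the change (0.864% of all genes). Of the 43, 11 rose (5.33% of all genes) and 1 fell (7.86%) at 24 h, and their median went from 0.26 to 0.04. The change of Gpx1 was lost in 14 of 24 other settings and that of Rpl18 in 15.

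Several resolved rises were seen on a probe set that does not stand for its gene because another has a higher mean signal. Hspb1, a small heat shock protein of reactive astrocytes, had 3 of 4 tested probe sets with a passing change. On the strongest of these the signals were 36.2, 48.2 and 26.2 on PBS and 1285, 1423 and 1462 on kainate arrays of 24 h, and 38.9, 35.9 and 41.1 on PBS and 70.4, 55.8 and 69.3 on kainate arrays of 72 h. Kainate arrays were above PBS arrays at both times, and the change was −4.53 (limma adjusted p = 3.5e-08). The probe set that stands for Hspb1 gave −0.07 at 24 h and 0.26 at 72 h, so the probe sets of this gene disagree.

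Ccl2, a chemokine that attracts monocytes, had 20.6, 34.7 and 21.6 against 103, 156 and 116 at 24 h and 16.7, 16.2 and 22.9 against 18.2, 22.2 and 22.4 at 72 h on its passing probe set. The groups were apart at 24 h and overlapped at 72 h, and the change was −2.12. This probe set met the signal filter only through the kainate arrays of 24 h. The effect at 6 h had been 5.93. Trh, the precursor of thyrotropin-releasing hormone, had 29.2, 12.2 and 22.7 against 165, 253 and 222 at 24 h and 25.3, 21.3 and 20.2 against 41, 49.6 and 50.5 at 72 h. The change was −2.31, and kainate arrays stayed apart from PBS arrays at 72 h (log2 1.08, limma adjusted p = 0.443). For Ccl2 and Trh, as for Flnc, Arpp21, Cryab and Pnoc, 1 of 2 tested probe sets passed in the change.

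**Figure D2:**
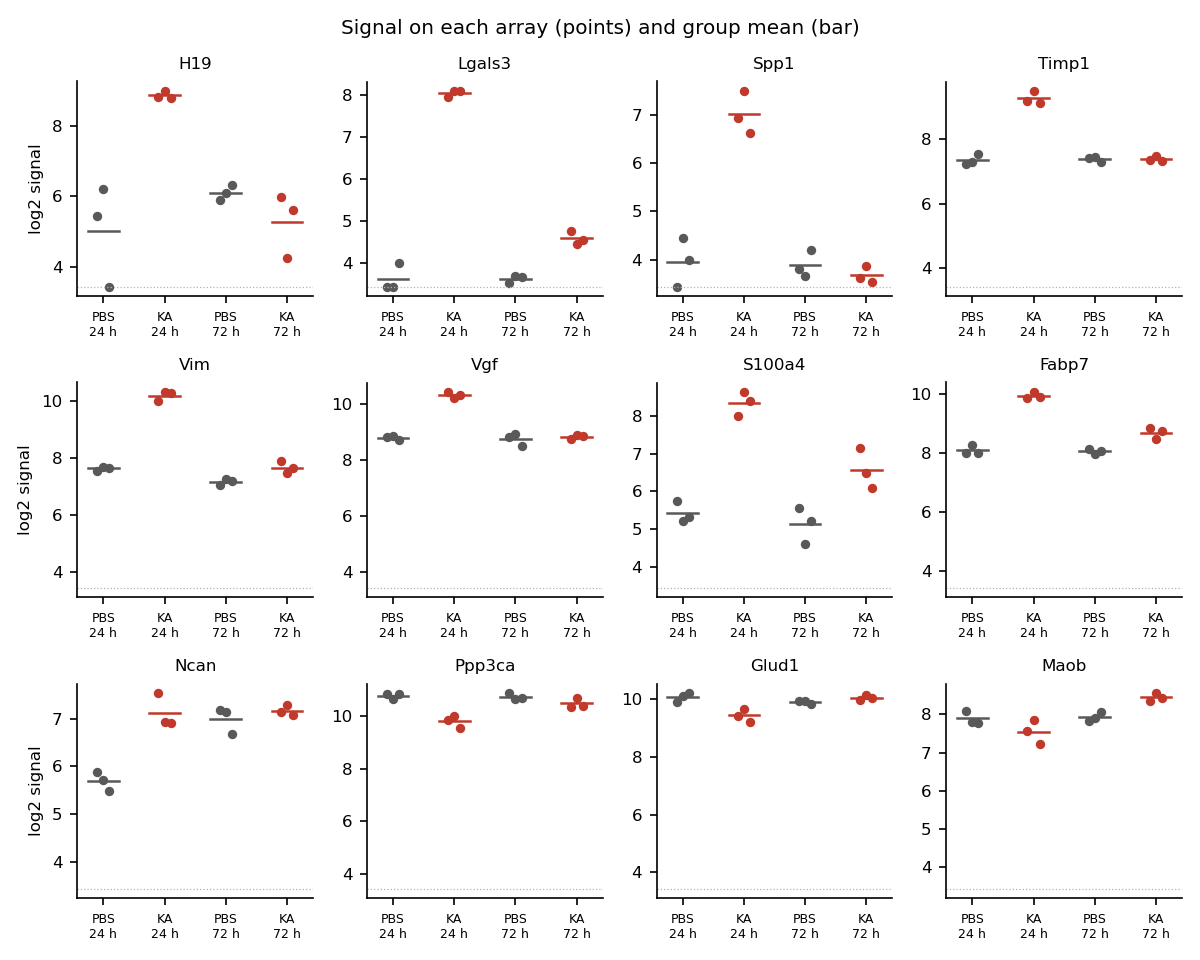
Log2 signal on each of the 12 arrays for 12 genes, with points for arrays, a bar for the mean of 3 arrays, PBS in grey and kainate (KA) in red, and the dotted line at the floor. Vim, Timp1 and Vgf are high in kainate arrays of 24 h alone, S100a4 is above PBS at both times, and Ncan is low only in PBS arrays of 24 h.

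To show what lies before the start of these genes, promoters from RefSeq (GRCr8) were searched. The window ran from 250 bases before to 50 bases after the start, 300 bases in all, and was found for 19 of the 24 resolved rises. The motifs were TGANTCA (AP-1, bound by Fos and Jun proteins), TGACGTCA (CRE, bound by CREB) and TTCNNNGAA (bound by STAT proteins), each of which reads the same on both strands. They were chosen because these factors serve neuronal activity and cytokine signalling. At least 1 of the 3 was found in 4 of the 19, beside 17.1% of 33469 promoters of the same length, and singly TGANTCA was found in 2 (7.33% of all), TGACGTCA in 1 (1.83%) and TTCNNNGAA in 2 (8.87%). The 4 promoters follow 5′ to 3′, with the motif in capitals. Cd63 is at chr7:1921894-1922193 on the plus strand with TGANTCA from 143 bases before the start, and Vgf at chr12:25276971-25277270 on the minus strand with TGACGTCA from 90 bases before it. Serpina3n is at chr6:129088142-129088441 on the plus strand with TTCNNNGAA from 123 bases before the start. Ifitm3, an interferon-induced membrane protein, is at chr1:205541709-205542008 on the minus strand, with TGANTCA from 151 and TTCNNNGAA from 33 bases before it. A match describes the letters and says nothing of binding.
Cd63: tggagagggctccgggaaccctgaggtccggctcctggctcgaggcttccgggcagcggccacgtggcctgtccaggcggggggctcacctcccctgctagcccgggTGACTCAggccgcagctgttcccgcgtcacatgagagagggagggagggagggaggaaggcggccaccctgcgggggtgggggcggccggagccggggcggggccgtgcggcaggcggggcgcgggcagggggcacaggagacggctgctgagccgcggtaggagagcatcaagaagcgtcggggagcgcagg
Vgf: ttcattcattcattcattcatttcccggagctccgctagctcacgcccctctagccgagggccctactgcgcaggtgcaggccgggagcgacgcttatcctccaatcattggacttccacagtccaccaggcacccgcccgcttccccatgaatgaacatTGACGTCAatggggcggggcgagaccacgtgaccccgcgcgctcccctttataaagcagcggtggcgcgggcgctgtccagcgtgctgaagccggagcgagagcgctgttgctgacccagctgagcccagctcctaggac
Serpina3n: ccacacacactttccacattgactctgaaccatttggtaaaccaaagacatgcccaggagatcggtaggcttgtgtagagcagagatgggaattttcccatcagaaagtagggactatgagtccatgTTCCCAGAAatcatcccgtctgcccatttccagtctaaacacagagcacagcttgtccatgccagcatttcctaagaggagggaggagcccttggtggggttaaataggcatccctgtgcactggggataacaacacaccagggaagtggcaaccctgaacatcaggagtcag
Ifitm3: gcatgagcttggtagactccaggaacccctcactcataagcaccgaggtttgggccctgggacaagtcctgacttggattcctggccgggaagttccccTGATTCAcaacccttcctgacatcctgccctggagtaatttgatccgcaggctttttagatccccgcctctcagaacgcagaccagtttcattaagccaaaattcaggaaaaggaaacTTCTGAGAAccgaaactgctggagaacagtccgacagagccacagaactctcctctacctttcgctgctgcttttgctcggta

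In 3 of the 24 resolved rises the PBS arrays moved more between 24 and 72 h than the kainate arrays did. Csrp3, a muscle LIM protein, had 4.06, 6.09 and 11.5 on PBS and 51.7, 23.6 and 46.5 on kainate arrays of 24 h, and 52.2, 56.8 and 56.3 on PBS and 61.6, 47.1 and 47.6 on kainate arrays of 72 h. The PBS arrays of 24 h stood alone below the other groups. The PBS level rose by log2 2.31 (limma adjusted p = 0.00012) and the kainate level differed by 0.43, so its change of −1.89 (limma adjusted p = 0.0398) lay mostly on the PBS arrays, and it was lost in 14 of 24 other settings. Ncan, the matrix proteoglycan neurocan, changed by −1.26, with the PBS level 1.31 higher and the kainate level 0.04 higher at 72 h. Apod, the lipid carrier apolipoprotein D, changed by −0.83, with 0.76 and −0.07. Over all probe sets the PBS level passed between 72 and 24 h at 465 (7.96%) and over all genes at 7.28%. It passed at 5 of these 24 genes, whose choice by the change also draws on the PBS levels.

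The 5 resolved falls include enzymes and transporters of astrocytes and 1 neuronal phosphatase. Gstm7, a glutathione transferase, had 642, 692 and 601 on PBS and 403, 432 and 365 on kainate arrays of 24 h, and 619, 556 and 580 on PBS and 670, 734 and 751 on kainate arrays of 72 h. Kainate arrays lay below PBS arrays at 24 h and above them at 72 h, without overlap at either time. The effect was −0.69 at 24 h and 0.30 at 72 h, where it did not pass, and the change was 0.99 ± 0.20 (limma adjusted p = 0.00745).

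Glud1, the mitochondrial glutamate dehydrogenase, had 959, 1117 and 1187 against 693, 811 and 600 at 24 h and 996, 997 and 926 against 1014, 1134 and 1065 at 72 h. It also turned from below the PBS arrays to above them, with a change of 0.78 ± 0.17 (limma adjusted p = 0.0211). Aldoc, the brain aldolase of astrocytes, had 2025, 2044 and 1945 against 1063, 1336 and 1013 at 24 h and 2190, 2045 and 1969 against 1961, 2078 and 1826 at 72 h. Its groups were apart at 24 h and overlapped at 72 h, and the change was 0.75 ± 0.18 (limma adjusted p = 0.0434). Slc15a2, a peptide transporter of astrocytes, had 190, 166 and 223 against 85, 127 and 104 at 24 h, and 163, 165 and 171 against 170, 170 and 175 at 72 h, with groups apart at 24 h alone and a change of 0.93 ± 0.23 (limma adjusted p = 0.0463). For Glud1 1 of 3 tested probe sets and for Aldoc 1 of 2 passed in the change.

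Ppp3ca, the catalytic subunit of the neuronal calcium-dependent phosphatase calcineurin, had 1833, 1606 and 1822 against 921, 1022 and 750 at 24 h and 1864, 1614 and 1645 against 1310, 1653 and 1340 at 72 h. It was 1.97-fold lower at 24 h, overlapped with PBS arrays at 72 h at −0.26, and changed by 0.72 ± 0.17 (limma adjusted p = 0.0398). Of 24 tested neuron markers 9 fell at 24 h (7.86% of all genes) and 0 rose (5.33%), and 1, Ppp3ca, passed in the change (0.864%). Their median effect was −0.34 at 24 h and −0.07 at 72 h, and 18 of 24 lay below 0 at 72 h (56.5% of all genes). Camk2a, a calcium- and calmodulin-dependent kinase of excitatory synapses, fell by 1.90 on the log2 scale at 24 h and stood at −0.43, and its change did not pass. Of 31 calcium and calmodulin signalling genes 11 fell, 0 rose and 1, again Ppp3ca, passed in the change. Their median went from −0.31 to −0.22, with 23 of 31 below 0 at 72 h. The change of Gstm7 passed in all 24 other settings, while that of Slc15a2 and of Aldoc was lost in 16 of them, Ppp3ca in 13 and Glud1 in 9, most of these with 1 array left out.

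Of 17 tested astrocyte markers 4 fell at 24 h (Agt, Aldoc, Ntsr2 and S100b) and 1, Fabp7, rose. Their median was −0.25 at 24 h and 0.06 at 72 h, and 2 passed in the change, Aldoc upwards and Fabp7 downwards. Their summed signal was 23895 to 25267 on PBS and 21231 to 24619 on kainate arrays of 24 h, and 22050 to 24578 and 23494 to 26506 at 72 h. Of 37 voltage-gated and potassium channels 8 fell and 1 rose at 24 h, with none in the change and medians of −0.26 and −0.13. Of 14 genes of cholesterol synthesis 3 fell, Idi1, Sqle and Fdps, with none in the change and medians of −0.36 and −0.10. Beside these lists, 7.86% of all genes fell and 5.33% rose at 24 h, and 0.864% passed in the change.

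S100a4 alone passed at both times. This calcium-binding protein of motile cells, glia among them, had 53.4, 37.1 and 40.2 on PBS and 259, 398 and 337 on kainate arrays of 24 h, and 47.4, 24.3 and 36.9 on PBS and 143, 89.1 and 67.9 on kainate arrays of 72 h. Kainate arrays were above all PBS arrays at both times. The effect was 7.58-fold at 24 h (log2 2.92 ± 0.27 SE, limma adjusted p = 1.46e-08) and 2.73-fold at 72 h (log2 1.45 ± 0.27 SE, limma adjusted p = 0.041). The change of −1.47 ± 0.39 did not pass (limma adjusted p = 0.082). At 240 h the effect was 0.39. The 72 h call held in 14 of 24 other settings, with adjusted p between 0.00134 and 0.302. It was lost without any one of kainate replicates 2 or 3 of 24 h, PBS replicates 2 or 3 of 72 h, or kainate replicates 1 or 2 of 72 h.

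No fall of 24 h passed at 72 h. The nearest were Cap2, an actin-binding protein, and Dgkz, a kinase that removes the messenger diacylglycerol. Cap2 had 276, 275 and 242 against 120, 172 and 144 at 24 h and 299, 246 and 219 against 140, 183 and 152 at 72 h. Its kainate arrays were below the PBS arrays at both times by similar amounts: the effect was −0.88 at 24 h, −0.69 at 72 h (limma adjusted p = 0.184) and −0.73 at 240 h (limma adjusted p = 0.079). For Dgkz the effect was −0.74 at 24 h and −0.50 at 72 h (limma adjusted p = 0.329), and −0.09 at 240 h. The nearest rise after S100a4 was Nme2, a nucleoside diphosphate kinase, with 741, 864 and 745 against 1108, 992 and 1261 at 72 h. Its effect was 0.39 at 24 h, where it passed, and 0.51 at 72 h (limma adjusted p = 0.0999).

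How many differences stay depends on how arrays are weighted. With arrays weighted by quality 147 probe sets passed at 72 h, 106 higher and 41 lower, and of the 729 probe sets of 24 h 35 rises and 14 falls passed again in the same direction. By genes these were 20 rises, S100a4, Fabp7, C1qb, Npy, Nme2 and the protein disulfide isomerases Pdia3 and Pdia6 among them, and 7 falls. The falls were Cap2, Dgkz, Galnt5, Nr4a3, Camkv, Arc, a synaptic protein made near active synapses, and Nrgn, the postsynaptic protein neurogranin. Without weights the 72 h effects of Arc and Nrgn were −0.41 and −0.34.

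The 24 h effects share no array with the 72 h effects. The 72 h arrays did enter the pooled spread behind the 24 h calls and the signal filter. The 317 rises had a median effect of 0.80 at 24 h, a value chosen for its size, and 0.23 at 72 h, with quartiles of 0.08 and 0.40. At 72 h 265 of them (83.6%) lay above 0, beside 44.6% of all tested, 79 (24.9%) were higher at an unadjusted p under 0.05, beside 4.26%, and 124 (39.1%) had kainate arrays all above PBS arrays, beside 10.5%. The 412 falls went from −0.74 to −0.22, with quartiles of −0.32 and −0.11, and 378 (91.7%) lay below 0 at 72 h, beside 55.3% of all. Of these 42 (10.2%) were lower at an unadjusted p under 0.05, beside 2.41%, and 158 (38.3%) had groups apart, beside 12.3%. Most probe sets called at 24 h thus kept the sign of their effect at 72 h with a reduced size.

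At 240 h the median effects were −0.03 for the rises and 0.02 for the falls, and 144 of 317 (45.4%) and 193 of 412 (46.8%) kept their sign, beside 52.4% above 0 and 47.6% below 0 over all tested. At 6 h the medians of the same probe sets were 0.05 and −0.08. The median of the 40 resolved rises was 0.84 at 6 h and 0.12 at 240 h. Single genes followed different courses: Nptx2 and, on 1 of its 2 tested probe sets, H19 were already higher at 6 h, while Cyba (−0.17) and Gpx1 (−0.21) were not.

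**Figure D3:**
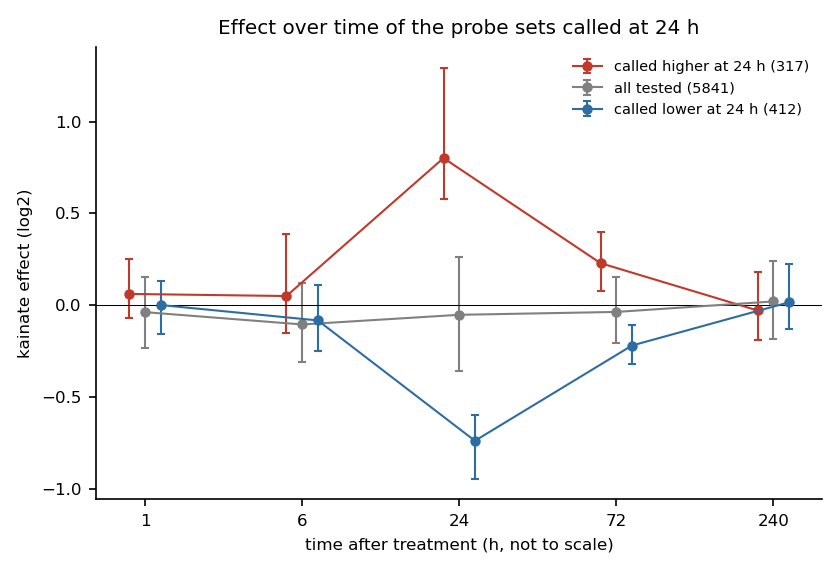
Median kainate effect (log2, with quartiles as bars) at 1, 6, 24, 72 and 240 h, not to scale, for the probe sets that passed higher (317, red) or lower (412, blue) at 24 h and for all 5841 tested (grey). The 24 h values chose the probe sets; at 72 h their medians are 0.23 and −0.22, and at 240 h −0.03 and 0.02.

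Of the probe sets that did not pass at 24 h, 2 passed at 72 h, and with arrays weighted by quality 71 passed higher and 27 lower. Maob, the monoamine oxidase of astrocytes, is the only probe set whose change passed without an effect at 24 h. It had 273, 224 and 221 against 190, 229 and 149 at 24 h and 226, 239 and 267 against 327, 376 and 346 at 72 h. Groups overlapped at 24 h, and kainate arrays lay above PBS arrays at 72 h. The change was 0.87 ± 0.20 (limma adjusted p = 0.0314), but neither the effect at 24 h (−0.35, limma adjusted p = 0.106) nor that at 72 h (0.52, limma adjusted p = 0.238) passed, and the change was lost in 10 of 24 other settings. B4galt6, a galactosyltransferase that makes lactosylceramide, passed at 72 h alone (log2 0.71 ± 0.14 SE, limma adjusted p = 0.0475), with 0.24 at 24 h and a change of 0.47 that did not pass. The other of the 2 probe sets that passed at 72 h alone has no gene in the annotation.

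Other genes not called at 24 h whose change and 72 h effect had the same sign did not pass in the change. Those with the smallest p were Htr4, a serotonin receptor, and Mog, a myelin glycoprotein, with a lower effect at 72 h, and, after Maob, Cyp2b2, a cytochrome P450, with a higher one. Mog had 209, 179 and 196 against 270, 237 and 248 at 24 h and 294, 311 and 350 against 227, 293 and 227 at 72 h, and thus lay above PBS at 24 h and below it at 72 h without overlap. Its change of −0.73 ± 0.21 did not pass (limma adjusted p = 0.152), and the PBS level was itself 0.71 higher at 72 h (limma adjusted p = 0.00346). The changes of Htr4 (−2.68 ± 0.72, limma adjusted p = 0.0938) and Cyp2b2 (2.33 ± 0.79, limma adjusted p = 0.299) did not pass either.

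**Figure D4:**
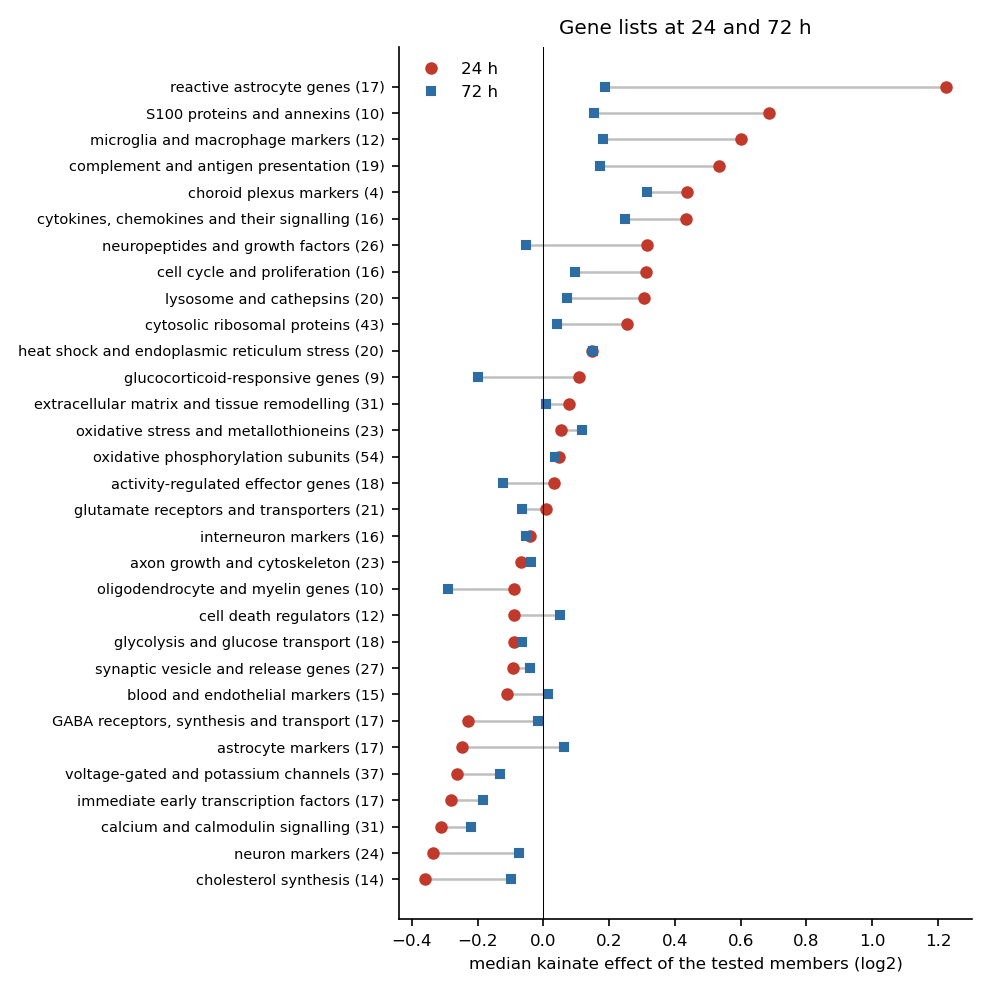
Median kainate effect (log2) of the tested members of 31 gene lists at 24 h (red circles) and 72 h (blue squares), with the number of tested members in brackets. The reactive astrocyte list moves from 1.22 to 0.19, the neuron markers from −0.34 to −0.07, and the heat shock list stays at 0.15.

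Other lists held few calls in the change, where 0.864% of all genes passed. At 24 h 5.33% of all genes rose and 7.86% fell. Of 10 S100 proteins and annexins 5 rose and 2 fell at 24 h, 1 (S100a4) passed at 72 h and 1 (S100a10) in the change. Of 31 extracellular matrix genes 7 rose, 2 fell and 3, Spp1, Timp1 and Ncan, passed in the change. Of 17 immediate early transcription factors 4 fell at 24 h, Egr1, Egr4, Nr4a1 and Nr4a3, with none in the change and medians of −0.28 and −0.18. Of 18 activity-regulated effector genes 3 rose and 3 fell, and 1, Nptx2, passed in the change. Of 16 cell cycle genes 4 rose and 1 fell, with none in the change. Of 18 glycolysis genes 2 rose and 4 fell, with Aldoc in the change. No member of the lists of interneuron markers (16 tested), blood and endothelial markers (15), choroid plexus (4), glutamate receptors (21), GABA genes (17), synaptic vesicle genes (27), cell death regulators (12), axon growth (23) and glucocorticoid-responsive genes (9) passed in the change.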

How the data were processed

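Total RNA of rat hippocampus was hybridised to Affymetrix arrays. The table that the authors deposited gives linear signal intensities, 1 for every probe set on every array. The steps from scan to intensity are not given in the sources used here. Without array controls, each array was scaled to a common trimmed mean (2% off each end), which gave 150.0. Values below the 20th percentile, 10.85, were raised to it (log2 3.44) before taking log2. A fold against arrays at the floor depends on it. Precision is limited by the number of arrays.

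Of 8799 probe sets 59 are array controls. Of the other 8740, 7006 had 1 gene in the platform annotation, 308 several and 1426 none, and 6985 matched a current gene identifier. The tested probe set with the highest mean log2 signal over all 30 arrays stood for a gene.

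Limma 3.58.1 (R 4.3.3) fitted a mean for each of 10 groups to all 30 arrays, with trended empirical Bayes moderation (residual degrees of freedom 20, prior 7.14), and Benjamini-Hochberg adjustment over the 5841 tested probe sets, at a threshold of 0.05. Calls for genes are those of their probe sets. The contrasts were the kainate effect at each time, the change of the effect from 24 to 72 h, and the 72 h against the 24 h level within each treatment. The procedure was tested on simulated data. Python 3.11.15 with pandas 2.3.3, numpy 2.4.6 and matplotlib 3.10.9 made the tables and plots.

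Genes were named by a rule. It takes the 8 resolved rises and 8 resolved falls with the largest change whose 24 h groups do not overlap, and the lasting, late and reversed genes with the largest effect or change. Where fewer than 2 passed in such a class, the 2 with the smallest p were added as not passing. From each list come up to 2 members that passed in the change with the largest change, and 1 lasting member. Other genes were named after their values were seen. The comparison, the gene lists and the promoter motifs were chosen with earlier results of these data known, and lists share genes. Alternatives were other samples and spreads in the fit, array weights, normalization, floor and filters, a replicate block, the mean of the probe sets of a gene and leaving out each array.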

Additional observations from a re-analysis of the deposited data

Results flagged for a closer look

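The change from 24 to 72 h is a test of a difference between the effects of kainate at the 2 times. It passed at 40 probe sets with a lower effect at 72 h and at 7 with a higher effect (limma, adjusted p under 0.05). Among named genes with a lower effect at 72 h, the log2 change was −4.66 for H19, −3.44 for Lgals3, −3.29 for Spp1, −2.25 for Plin2, −2.05 for Vim, −1.90 for Timp1, −1.89 for Csrp3, −1.89 for Cyba, −1.79 for S100a10 and −1.45 for Vgf. It was −1.40 for Cd63, −1.23 for Fabp7, −1.09 for Gpx1, −1.04 for Nptx2 and −0.88 for Rpl18. Among those with a higher effect at 72 h it was 0.72 for Ppp3ca, 0.75 for Aldoc, 0.78 for Glud1, 0.87 for Maob, 0.93 for Slc15a2 and 0.99 for Gstm7. For Csrp3 the PBS arrays moved more than the kainate arrays. The beta-actin 3 prime to 5 prime ratio differs between the 24 and 72 h arrays, and its part in these changes was not tested.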

How the results depend on the processing

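Of 21 named genes that passed in the change, 9 passed in every setting run for them (H19, Lgals3, Spp1, Vim, Timp1, Gstm7, Fabp7, Vgf and Cd63), 12 lost the call in at least 1 (Slc15a2, Aldoc, Rpl18, Csrp3, Gpx1, Ppp3ca, Cyba, S100a10, Maob, Glud1, Nptx2, which lost it without PBS replicate 1 of 72 h among others, and Plin2, which lost it with the replicate block), and none of the 28 named genes changed sign; there were 24 settings, of which 12 leave out an array. The median 72 h effect of the 24 h rises and falls kept its sign in the 23 settings run for it, all but the mean of the probe sets of a gene. With only the 12 arrays in the fit, 1 probe set passed at 72 h (1 higher). It was also among the 24 h rises of the main fit, while 0 passed at both times without a change. When the spread was estimated at each time apart, 300 passed at 24 h (158 higher, 142 lower), 0 at 72 h (0 higher) and 0 at both times, with 241 undecided. With array weights 147 passed at 72 h (106 higher, 41 lower), 36 at both times without a change, and 934 between the PBS groups. Without the floor 0 passed at both times without a change. Without the filter 10 passed at 72 h (10 higher), 3 of them among the 24 h rises of the main fit, and 2 passed at both times without a change. Without the intensity trend 0 passed at 72 h (0 higher) and 0 at both times. The cause of these differences was not tested.

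With the replicate number as a block within each time, 25 passed in the change (1 higher, 24 lower), 25 were resolved, 0 passed at 72 h (0 higher) and 0 at both times. Arrays of the same number deviated together with correlations between −0.08 and 0.17 over the 5 times, so the numbers were not taken to pair the arrays.

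Leaving out 1 array gave 29 to 51 probe sets in the change (1 to 13 higher, 28 to 38 lower), with 29 without kainate replicate 2 and 30 without kainate replicate 3 of 72 h. It gave 343 to 744 at 24 h (172 to 318 higher, 171 to 426 lower), with 343 without kainate replicate 3 and 447 without PBS replicate 3 of 24 h. At 72 h it gave 0 to 4 (0 to 4 higher, 0 to 0 lower), with 0 without kainate replicates 2 or 3 of 24 h or kainate replicates 1 or 2 of 72 h. It gave 29 to 51 resolved, 0 to 2 at both times, 311 to 693 undecided and 218 to 504 between the PBS groups.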

Other observations

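Some lists held differences at 72 h that did not pass after adjustment and are not described above. Of 20 heat shock and endoplasmic reticulum genes 4 rose at 24 h (5.33% of all genes), Hspa9, Hspd1, Cryab and Pdia3. The median of the list was 0.15 at both times. At 72 h 6 of 20 were higher at an unadjusted p under 0.05, beside 4.09% of all genes tested. Pdia3, a disulfide isomerase that folds proteins, stood at 0.44 at 24 h and 0.50 at 72 h, Hspa9, a mitochondrial chaperone, at 1.11 and 0.77, and Hspa5, the main chaperone of the endoplasmic reticulum, at 0.21 and 0.44. Of 23 oxidative stress genes 6 were higher at 72 h at an unadjusted p under 0.05, with medians of 0.05 and 0.12, and of 54 subunits of oxidative phosphorylation 8 were, with medians of 0.05 and 0.03.

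Of 10 oligodendrocyte and myelin genes 9 lay below 0 at 72 h, beside 56.5% of all genes. At an unadjusted p under 0.05 4 were lower, beside 2.59% of all genes. Their median was −0.09 at 24 h and −0.29 at 72 h. Mal, a proteolipid of myelin, stood at −0.46 and −0.72, and Mobp, a basic protein of myelin, at −0.23 and −0.47. The summed signal was 8985 to 9168 on PBS and 7605 to 8178 on kainate arrays of 24 h, and 11025 to 11801 and 7677 to 11040 at 72 h, so kainate and PBS arrays overlapped in it at 72 h by a small margin, and PBS arrays of 72 h were higher than those of 24 h. The part of the set of arrays in this was not tested.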
